A study of Saccharomyces cerevisiae with 14 samples.

Results

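The INO80-specific subunit genes are the 10 genes of budding yeast whose products belong to the INO80 chromatin remodelling complex and to no other complex. They were chosen by name among the 6612 transcripts of the tables. INO80 slides and spaces nucleosomes with the energy of ATP and is known for organising the nucleosomes around promoters and replication origins. Ino80, a Snf2-family ATPase, drives the movement of DNA, and the other subunits assemble on it. The N-module holds Nhp10, Ies1, Ies3 and Ies5, the A-module holds Arp8 and Ies4 beside shared subunits, and the C-module holds Arp5, Ies2 and Ies6 beside the shared Rvb1 and Rvb2 ATPases. All 10 transcripts were measured in all 14 libraries, and all 10 passed the filter on low counts in every fit.

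Total RNA was sequenced from *arp8-AA* cells (strain yPB4), in which Arp8 carries S65A and S233A, and from *ARP8* wild-type cells (strain yCFK51). There were 3 asynchronous cultures of each genotype, and 2 libraries of each genotype at 10 min and 2 at 20 min after release from arrest with α-factor, the mating pheromone that holds MATa cells in G1. Both strains are MATa with deletions at *HIS3*, *LEU2* and *URA3*, and a *MET15* deletion is given for *ARP8* but not for *arp8-AA*. Each genotype is a single strain, so the substitutions and any other difference between the strains cannot be told apart. The study also described a later entry into S phase in *arp8-AA*, so that equal times after release need not be equal stages.

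The libraries held between 1864995 and 6016858 estimated counts. All 6 MATa genes checked were present, and of the 3 genes of the opposite mating type *MF(ALPHA)1* had at most 2 counts, *MF(ALPHA)2* at most 14 and *STE3* between 2 and 55. *LEU2*, *URA3* and *MET15* were at 0 in all 14 libraries, the *arp8-AA* libraries included, while *HIS3* had 57 to 373 counts. Among asynchronous *ARP8* cultures, replicate 1 stood apart from replicates 2 and 3 (chi-square per degree of freedom 11.4 and 11.1, against 1.59 between replicates 2 and 3). Replicate 1 of asynchronous *arp8-AA* was also the furthest from the others (7.9 and 5.27, against 3.13). Between the replicates of the released groups the values were 19.8 to 36.2. This measure grows with depth, which differed between libraries, so the released values are not set against the asynchronous ones.

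The codons that *arp8-AA* alters lie in *ARP8* (YOR141C_mRNA), which is on the minus strand of chromosome XV, 589942–592587, in build R64. They are shown because they are the only designed difference in the sequence of any of the 10 transcripts. The reference sequence around each is printed from the RefSeq genome, 5′ to 3′ on the coding strand, with the serine codon in capitals. The windows span 592372–592416 for codon 65 and 591868–591912 for codon 233.
ARP8 codon 65: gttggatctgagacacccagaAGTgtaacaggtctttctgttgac
ARP8 codon 233: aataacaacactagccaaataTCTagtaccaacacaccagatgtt
The reads were assigned by 31-mers, and 66 of the 2616 31-mers of *ARP8* (2.52%) touch one of these codons. How far this lowers the count of *ARP8* in *arp8-AA* was not tested. None of the 10 coding sequences shares a 31-mer with another coding sequence of RefSeq. Quantified transcripts outside RefSeq were not part of this count. Of these, YFL013W-A overlaps *IES1* by 751 bases and YFL012W-A by 121 bases, both on the opposite strand. Each is a single exon, and the lengths in the files are those of the coding sequences, without UTRs.

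Levels are given in TPM, which scale counts by transcript length and by library. In all 14 libraries the same 4 genes were highest. *IES4* (A-module; YOR189W_mRNA, chromosome XV, 689624–689974) lay between 92.9 and 160 TPM with a median of 131 TPM. *IES6* (C-module; YEL044W_mRNA, chromosome V, 69757–70257) had a median of 121 TPM (81.3 to 154), and *NHP10* (YDL002C_mRNA, chromosome IV, 446967–447578), which encodes the HMG-box protein of the N-module, had 104 TPM (75.9 to 121). *IES5* (N-module; YER092W_mRNA, chromosome V, 342855–343232) had a median of 97.0 TPM (77.1 to 157). Their ranges overlapped, and the order among these 4 differed between libraries.

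The middle of the order held 4 genes, including those of the motor and of the actin-related proteins Arp8 and Arp5. The actin-related A-module subunit gene *ARP8* had a median of 42.1 TPM (28.9 to 58.0), and *INO80* (YGL150C_mRNA, chromosome VII, 221104–225573) had 37.3 TPM (25.9 to 44.9). The C-module gene *IES2* (YNL215W_mRNA, chromosome XIV, 244468–245430) had 35.4 TPM (26.2 to 54.3). *ARP5* (YNL059C_mRNA, chromosome XIV, 512668–514935), whose product holds the C-module to the nucleosome, had 23.5 TPM (14.9 to 30.5). *ARP8* was above *INO80* in 11 of 14 libraries, with a median ratio of 1.14 (0.645 to 1.57), so this pair had no fixed order.

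The N-module genes *IES1* and *IES3* were lowest in every library. *IES1* (YFL013C_mRNA, chromosome VI, 107852–109930) had a median of 8.48 TPM (5.39 to 10.6), and *IES3* (YLR052W_mRNA, chromosome XII, 247201–247953) had 8.37 TPM (6.16 to 16.7). Each was the higher of the pair in 7 of 14 libraries. Genes of the same module therefore differed widely in level. The ratio of *NHP10* to *IES1* was 11.8 (8.69 to 21.2), and that of *IES5* to *IES3* was 12.7 (5.52 to 22.4). *IES4* exceeded *ARP8* between 2.47 and 4.55 times, and *IES6* exceeded *ARP5* 4.97 times (2.67 to 7.45). The 4 highest genes are also the 4 with the shortest coding sequences. Length classes were taken over the transcripts with a nonzero median TPM across the 14 libraries. The median of these was 31.4 TPM for lengths above 300 and up to 700 bases. It was 18.9 TPM for those above 1500 and up to 3000 bases. The part of length in the order of the members was not tested.

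**Figure D1:**
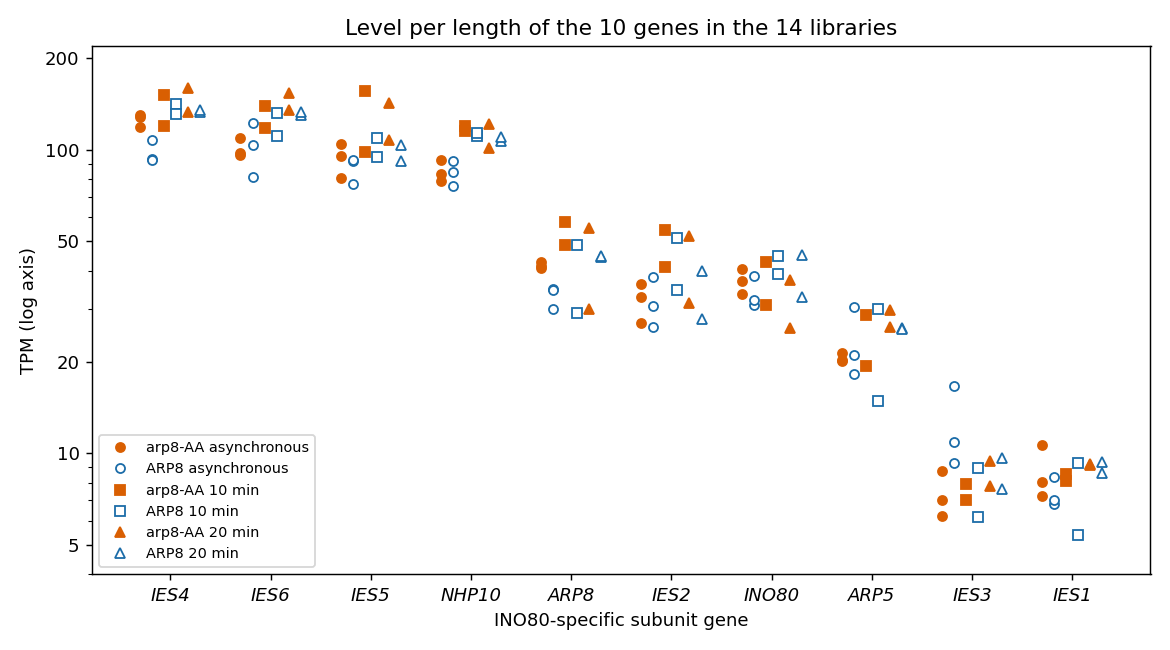
TPM (log axis) of each of the 10 genes in each library, grouped by level, with filled points for *arp8-AA*, open points for *ARP8* and the shape giving the stage. *IES4*, *IES6*, *IES5* and *NHP10* lie between 75.9 and 160 TPM, above the 4 genes of the middle, and *IES3* and *IES1* lie at or below 16.7 TPM.

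In asynchronous cultures the comparison asks whether the 10 transcripts differ between *arp8-AA* and *ARP8*. Here and below, libraries are compared in CPM, counts scaled by library size and TMM factor but not by length, with edgeR's quasi-likelihood test, the p-values being adjusted after Benjamini-Hochberg across every transcript of the fit, and an adjusted p under 0.05 is called a change. None of the 10 members was called (0 of 10), against 0.942% of the 5204 transcripts tested. DESeq2 and limma also called 0 of 10. At an unadjusted p under 0.05 there was 1 member, *IES3*, against 15.9% of all transcripts. The median log2 fold change of the members was -0.07 and that of all transcripts 0.00.

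*IES3* was the only member whose groups did not overlap, against 15.1% of all transcripts. It had 6.84, 8.78 and 9.90 CPM in *arp8-AA* and 19.7, 12.1 and 14.3 CPM in *ARP8*. The *arp8-AA* values lay below all *ARP8* values, and the highest *ARP8* value was in replicate 1. These rest on 18, 17 and 23 estimated counts in *arp8-AA* and 36, 25 and 27 in *ARP8*. The log2 fold change was -0.85 (SE 0.31, 95% interval -1.55 to -0.17), lower in 3 of 3 pairs, and did not pass the adjustment (edgeR quasi-likelihood, Benjamini-Hochberg adjusted p = 0.218). It was -0.49 without replicate 1 of *ARP8* and also -0.49 without replicate 1 of *arp8-AA*. As the test pairs libraries by replicate number, leaving out either of them removes that pair, so this is 1 check.

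*ARP8* itself, the gene that carries the substitutions, had 192.7, 227.4 and 195.4 CPM in *arp8-AA* and 149.8, 192.9 and 192.9 CPM in *ARP8* cultures. The groups overlapped narrowly, and the *arp8-AA* value was the higher of the pair in 3 of 3. The log2 fold change was 0.21 (SE 0.10, 95% interval -0.01 to 0.42; edgeR quasi-likelihood, Benjamini-Hochberg adjusted p = 0.339). *IES4*, of the same module, had 45.6, 50.6 and 43.0 CPM in *arp8-AA* and 35.0, 44.6 and 38.7 CPM in *ARP8*, a log2 fold change of 0.24 (SE 0.15), also higher in 3 of 3 pairs without being called. *ARP5* had 84.0, 92.0 and 81.3 CPM in *arp8-AA* and 129, 99.4 and 85.9 CPM in *ARP8*. Its log2 fold change was -0.28 (SE 0.14), lower in 3 of 3 pairs and not called, and the highest value was again in replicate 1 of *ARP8*. It was -0.09 without that library and -0.08 without replicate 1 of *arp8-AA*, which is again the removal of 1 pair.

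The motor gene *INO80* was the most evenly matched. It had 326.5, 309.5 and 307.7 CPM in *arp8-AA* and 332.9, 297.2 and 310.6 CPM in *ARP8*, a log2 fold change of 0.01 whose 95% interval ran from -0.17 to 0.18. *NHP10*, *IES1*, *IES5*, *IES2* and *IES6* had log2 fold changes between -0.14 and 0.09, none of them of 1 direction in all 3 pairs.

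**Figure D2:**
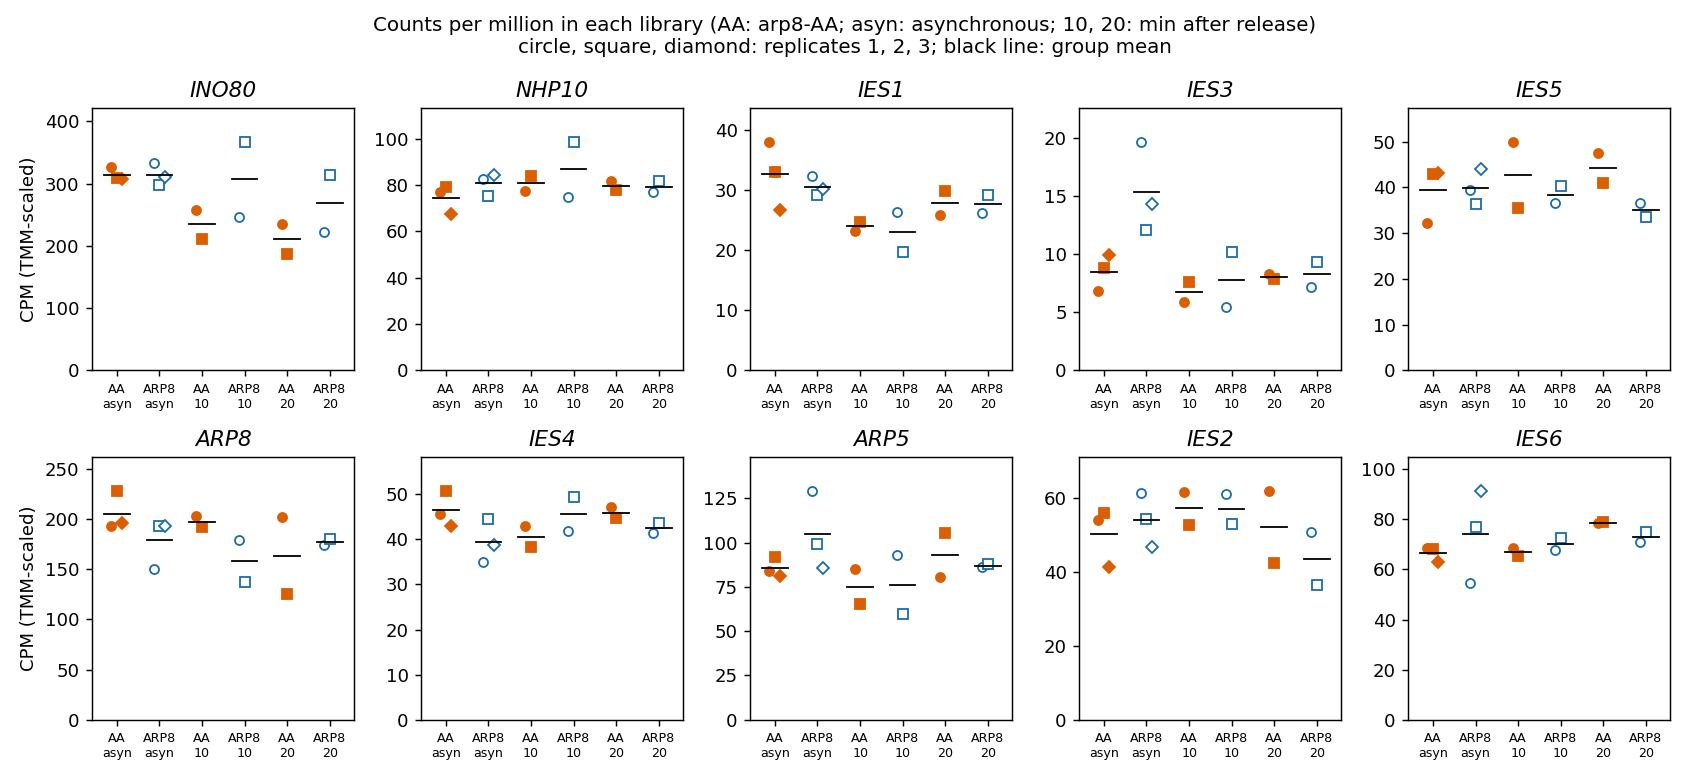
CPM of each gene in each library, with *arp8-AA* (filled) left of *ARP8* (open) at each stage, the marker giving the replicate and the line the mean of the group, each axis starting at 0. In asynchronous cultures *IES3* lies between 6.84 and 9.90 CPM in *arp8-AA* and between 12.1 and 19.7 CPM in *ARP8*, and the *INO80* values of the released cells differ more between replicates than the asynchronous ones.

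In released cells the same question was asked at 10 min and at 20 min, which the study names G1 and early S phase. The 8 histone genes, which are transcribed in S phase, differed between the replicates of each time. Their summed level at 10 min was 832 CPM in replicate 1 and 3298 CPM in replicate 2 of *arp8-AA*, and 1087 CPM in replicate 1 and 5543 CPM in replicate 2 of *ARP8*. At 20 min it was 2931 and 8768 CPM in *arp8-AA*, and 4912 and 8303 CPM in *ARP8*. Replicate 2 was thus higher in histone transcripts than replicate 1 in all 4 groups, and at 10 min in *ARP8* it was above all 6 asynchronous libraries (4034 to 5333 CPM). The part of this in the differences between replicates below was not tested. The asynchronous sums themselves differed by genotype, with 4116, 4299 and 4034 CPM in *arp8-AA* and 4990, 5318 and 5333 CPM in *ARP8*. There all 8 histone genes had negative log2 fold changes, and 3 of 8 were called lower, against 0.942% of all transcripts called. How far this bears on the members' asynchronous comparison was not tested. At 10 min 0 of 10 members were called, against 0% of the 5453 transcripts tested, and 0 had an unadjusted p under 0.05, against 2.82%. At 20 min 0 of 10 were called, against 0.0183%, and 0 had an unadjusted p under 0.05, against 7.15%. Taking both times together called 0 of 10, against 0.0917% of all transcripts, and 0 had an unadjusted p under 0.05, against 6.36%. The difference between the times called 0 of 10, against 0%, and 0 had an unadjusted p under 0.05, against 2.02%. DESeq2 called 0 members in each of these comparisons as well. The members' median log2 fold change was -0.05 at 10 min and 0.08 at 20 min, against 0.00 and 0.02 over all transcripts.

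*ARP8* was the only member without overlap between the genotypes at 10 min, against 16.1% of all transcripts. It had 202.9 and 191.7 CPM in *arp8-AA* and 178.6 and 136.7 CPM in *ARP8*, a log2 fold change of 0.34 (SE 0.19). At 20 min it had 201.7 and 125.1 CPM in *arp8-AA* and 174.1 and 180.0 CPM in *ARP8*, a log2 fold change of -0.13 (SE 0.19). The *arp8-AA* values at 20 min enclosed those of *ARP8*. The change in the genotype effect between the times was -0.47 (SE 0.27, 95% interval -1.06 to 0.12) and was not called.

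At 20 min 3 of 10 members did not overlap, against 29.4% of all transcripts, and all 3 were higher in *arp8-AA*. *IES5* had 47.5 and 40.9 CPM in *arp8-AA* and 36.5 and 33.5 CPM in *ARP8*, a log2 fold change of 0.35 (SE 0.21). *IES6* had 78.4 and 78.9 CPM in *arp8-AA* and 70.9 and 74.9 CPM in *ARP8* (log2 fold change 0.13, SE 0.16). *IES4* had 47.2 and 44.6 CPM in *arp8-AA* and 41.4 and 43.6 CPM in *ARP8* (0.13, SE 0.19). The share of members without overlap was close to that of all transcripts.

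*INO80* differed between the genotypes in replicate 2 of the released cells and little in replicate 1. At 10 min it had 258.4 and 210.7 CPM in *arp8-AA* and 247.0 and 367.2 CPM in *ARP8*, and at 20 min 235.8 and 187.4 CPM in *arp8-AA* and 222.7 and 314.3 CPM in *ARP8*. In replicate 1 the ratio of *arp8-AA* to *ARP8* was 1.05 at 10 min and 1.06 at 20 min, while in replicate 2 it was 0.574 and 0.596. The log2 fold change over both times was -0.35 (SE 0.17, 95% interval -0.72 to 0.02), with 2 of 4 pairs lower, and was not called (edgeR quasi-likelihood, Benjamini-Hochberg adjusted p = 0.768). It ranged from -0.52 to -0.19 when single libraries were left out. Among 475 tested transcripts longer than 3000 bases, a comparison added after the *INO80* values were seen, 3 (0.632%) had a lower ratio than *INO80* in replicate 2 at 10 min and 10 (2.11%) at 20 min, while in replicate 1 it was 69.3% at 10 min and 64.4% at 20 min. The median log2 ratio of these long transcripts was 0.147 at 10 min and -0.0545 at 20 min in replicate 2, the replicate with the higher histone levels. The labels do not say whether the 10 min and 20 min libraries of 1 number come from 1 culture, and libraries of 1 number deviated together across transcripts, so these are not shown to be independent pairs.

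The difference of the genotype effect between released and asynchronous cells, fitted over all 14 libraries, called 0 of 10 members, against 0% of 5493 transcripts, and 0 members had an unadjusted p under 0.05, against 5.79%. For *IES3* the difference was 0.73 (SE 0.40) and for *INO80* -0.36 (SE 0.22) on the log2 scale. The intervals of the single genes set the limit on what could be seen. The median SE of the members' log2 fold changes was 0.14 in asynchronous and 0.20 in released cells at 10 min.

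**Figure D3:**
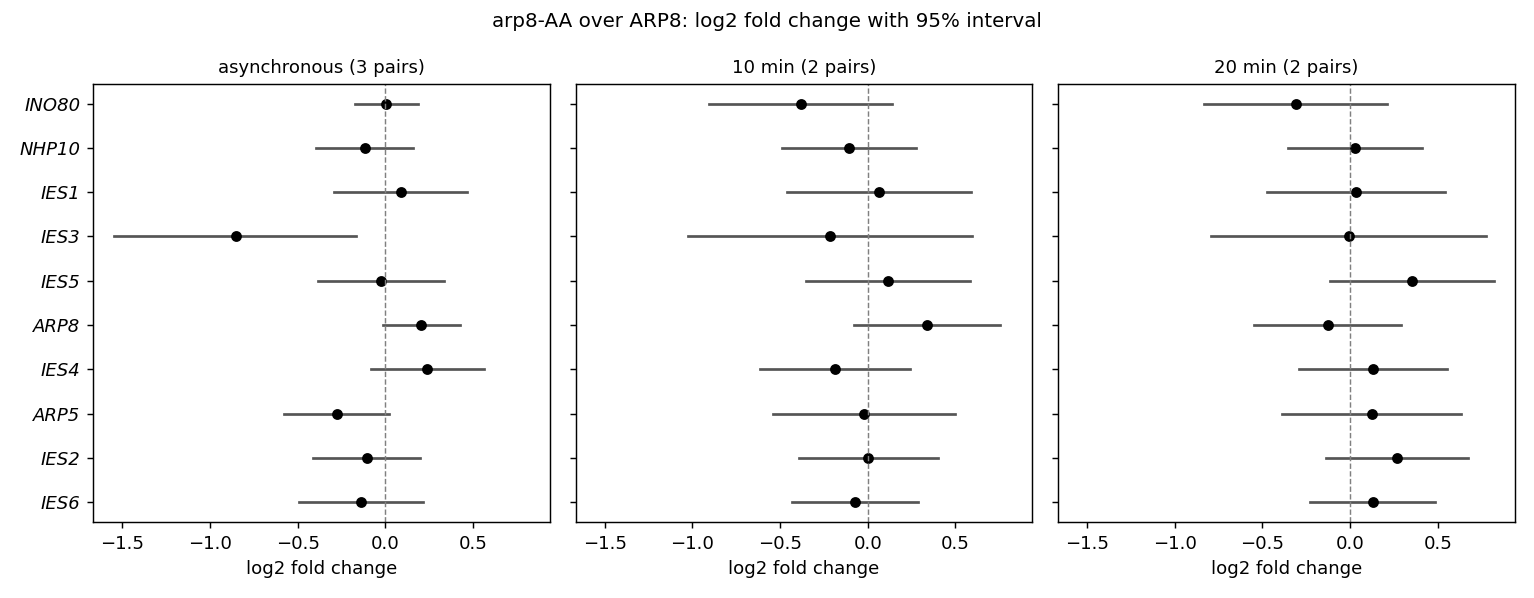
Log2 fold change of *arp8-AA* over *ARP8* (points) with the 95% interval (lines) for each gene in asynchronous cells and at 10 min and 20 min after release. The interval excludes 0 for *IES3* in asynchronous cells (-1.55 to -0.17), which was not called after adjustment, and includes 0 for the other genes shown.

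Between 20 min and 10 min after release 0 of 10 members were called in *arp8-AA*, against 0.0183% of all transcripts, and 0 of 10 in *ARP8*, against 0.11%. DESeq2 called 0 members in either genotype. At an unadjusted p under 0.05 there was no member (0 of 10) in *arp8-AA*, against 9.98%, and 1 in *ARP8*, against 10.1%. *INO80* was lower at 20 min in 4 of 4 same-numbered pairs, with log2 fold changes of -0.14 (SE 0.23) in *arp8-AA* and -0.21 (SE 0.23) in *ARP8*. The pairs of the genotypes share replicate numbers and are not shown to be independent. The member with an unadjusted p under 0.05 was *IES2*, whose product stimulates the ATPase of the complex. In *ARP8* it had 50.7 and 36.4 CPM at 20 min and 61.0 and 53.0 CPM at 10 min, a log2 fold change of -0.41 (SE 0.18; edgeR quasi-likelihood, Benjamini-Hochberg adjusted p = 0.491). In *arp8-AA* it had 61.8 and 42.4 CPM at 20 min and 61.7 and 52.6 CPM at 10 min (-0.14, SE 0.18), and the genotype difference in this change was 0.26 (SE 0.26).

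Without overlap between the times were 4 of 10 members in *arp8-AA* (*IES1*, *IES3*, *IES4* and *IES6*, all higher at 20 min), against 23.1% of all transcripts, and 2 of 10 in *ARP8* (*IES2* and *IES5*, both lower at 20 min), against 31.2%. *IES6* in *arp8-AA* had 78.4 and 78.9 CPM at 20 min and 68.4 and 65.5 CPM at 10 min, a log2 fold change of 0.25 (SE 0.16). The members' median log2 fold change was 0.14 in *arp8-AA* and -0.04 in *ARP8*, against 0.00 and -0.02 over all transcripts. For comparison, all 8 histone genes had positive values, with a median of 1.52 in *arp8-AA* and 1.18 in *ARP8*. At an unadjusted p under 0.05 there were 8 of 8 in both genotypes, and 0 of 8 passed the adjustment. Between 250 bases before and 50 bases after the first base of the start codon, ACGCGT and CGCGAAA, motifs of G1/S transcription searched on both strands, occurred in 0 of 10 members, against 3.06% and 3.59% of 6021 protein-coding genes. With shares this low, 0 of 10 does not set the members apart from other genes.

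**Figure D4:**
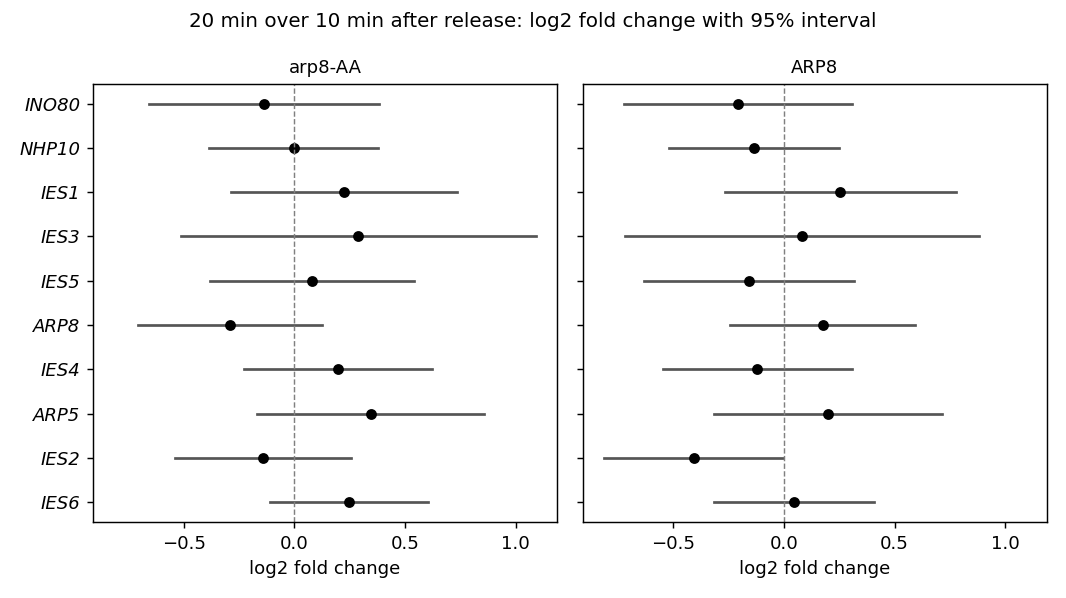
Log2 fold change of 20 min over 10 min after release (points) with the 95% interval (lines) for each gene, in *arp8-AA* on the left and *ARP8* on the right. The interval excludes 0 for *IES2* in *ARP8* (-0.81 to -0.0026), which was not called after adjustment.

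The members varied differently among replicates. The SD of log2 CPM within groups was 0.225 for *INO80* and 0.234 for *ARP8*, which is 4.22 and 3.51 times the SD that counting alone gives. For *IES4* (0.131) and *IES1* it was 0.963 and 1.10 times the counting SD. *IES3* had the widest spread, 0.335, at 1.12 times the counting SD, with 14 to 46 estimated counts in a library (exact Poisson 95% intervals 7.65 to 23.5 and 33.7 to 61.4, for counting error only). Across the 14 libraries the median Pearson r was 0.03 over the 45 pairs of the 10 genes and -0.02 after the group means were removed. Over the 21 pairs of the 7 SWR1-specific genes these values were 0.14 and 0.12. Where genes vary little beyond counting, a low r cannot show whether they move together. The r of other pairs of transcripts was not computed. The transcripts whose log2 CPM was most like the members' mean profile over the 14 libraries were *HSC82* (r = 0.849), *MIT1* (0.847) and *RSC6* (0.844), and these libraries share depth, experiment and replicate. The members themselves had r between -0.149 and 0.397 with the mean of the other members, so a likeness to the mean is not a likeness to each member.

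The summed level of the 10 genes depended on the scale. In TPM it was 589 to 768 in released and 498 to 569 in asynchronous cells, while in CPM it was 740 to 907 in released and 879 to 967 in asynchronous cells. Asynchronous and released cells are separate experiments, so the stage and the experiment cannot be told apart, and no direction was read from them.

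The other genes of the pathway gave no call. Of the 5 subunits that INO80 shares with other complexes (*RVB1*, *RVB2*, *ARP4*, *ACT1* and *TAF14*) and the 7 specific to SWR1, the related remodeller that deposits H2A.Z, 0 were called in every comparison, against 0% to 0.942% of all transcripts. At an unadjusted p under 0.05 there were 2 of 5 shared subunits in asynchronous cells, against 15.9%, and 1 of 5 over both times, against 6.36%. In the difference between released and asynchronous cells there were 2 of 5, against 5.79%. Of the SWR1-specific genes there were 0 of 7 in each of these. The smallest p among the shared subunits in asynchronous cells was that of actin, *ACT1*, with a log2 fold change of -0.34 (SE 0.12; edgeR quasi-likelihood, Benjamini-Hochberg adjusted p = 0.194), lower in 3 of 3 pairs. In asynchronous *ARP8* it had 781.2 CPM in replicate 1 and 384.9 and 390.6 CPM in the other libraries. In asynchronous *arp8-AA* it had 472.9 CPM in replicate 1 and 350.3 and 351.6 CPM in the other libraries. The log2 fold change was -0.14 without replicate 1 of *ARP8* and -0.13 without replicate 1 of *arp8-AA*, which is the removal of the same pair. In released cells over both times *ACT1* was 0.34 (SE 0.12, adjusted p = 0.685 by the same test), higher in 4 of 4 pairs, which are not shown to be independent. The difference between its released and asynchronous effects was 0.68 (SE 0.19, adjusted p = 0.845 by the same test). Among the SWR1-specific genes the value furthest from 0 was that of *VPS71* in asynchronous cells, -0.27 (SE 0.18), and that of *VPS72* in released cells over both times, -0.22 (SE 0.14), on the log2 scale. The median log2 fold change in asynchronous cells was -0.03 for both the shared and the SWR1-specific genes.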

How the data were processed

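The authors isolated total RNA (QIAzol in the paper, Trizol per the labels), removed ribosomal RNA with riboPOOL probes and made strand-specific libraries that were read from both ends. They pseudoaligned the reads with kallisto 0.48 to R64 transcripts at default settings, without use of strand, so reads of antisense partners cannot be told apart. The deposited tables hold estimated counts, TPM that kallisto computed from them, and the length and effective length of each transcript. No filter or normalization of the estimated counts is stated. The transcripts that overlap *INO80* or *IES1* held at most 1 count in any library. As YFL013W-A shares 751 bases with *IES1*, how far its reads are counted in *IES1* was not tested.

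Estimated counts were rounded, filtered with filterByExpr, scaled by TMM (factors 0.922 to 1.08) and tested two-sided with edgeR 4.0.16 (quasi-likelihood F-test, replicate number as a block, Benjamini-Hochberg adjustment, R 4.3.3). Asynchronous libraries (6) and released libraries (8) were fitted apart, and all 14 together for the difference between experiments. The study's methods name DESeq2 with the batch as a factor. DESeq2 1.42.0 and limma 3.58.1 on log2(TPM + 1) were alternatives, beside no block, other size factors, no filter, other sets of libraries in the fit, summing of overlapping transcripts, an adjusted p under 0.1 and leaving out each library. TMM-scaled counts per kilobase were the alternative to TPM. Plots used Python 3.11.15 and matplotlib 3.10.9, and the count test was tested on simulated data.

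Deviations from group means of same-numbered libraries correlated across transcripts at r = 0.108 to 0.229 in asynchronous and 0.436 to 0.631 in released cells, and numbers were taken to pair them. All 10 members are named by rule. Other lists are given by counts, with the gene furthest from 0 named. Members and lists were chosen with earlier results of these data known. The replicates are labelled biological.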

Additional observations from a re-analysis of the deposited data

How the results depend on the processing

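The count of members called was 0 under all 133 alternatives, over which the lowest adjusted p was 0.166 (edgeR quasi-likelihood, Benjamini-Hochberg, *IES3* in asynchronous cells with no filter on low counts). Without the replicate block it was also 0 of 10 in every comparison, while the count over all transcripts in asynchronous cells was 49 with the block and 4 without it, and 35 with DESeq2. At 10 min, 48 transcripts were called when that time was fitted alone and 0 in the fit of all 8 released libraries, and over both times 28 were called by DESeq2 and 5 by edgeR. For single members, the sign of the fold change turned in 88 cases and stayed in 592 when 1 library was left out, and turned in 18 and stayed in 632 under the other settings, none of these fold changes being called (0). In asynchronous cells both libraries of a pair count among these cases, though leaving out either removes the same pair. With limma on log2(TPM + 1), *ARP8* and *IES4* in asynchronous cells had unadjusted p of 0.0255 and 0.00792 (limma adjusted p 0.233 and 0.171). DESeq2 gave no adjusted p for *IES3* in asynchronous cells. The depth limits *IES3* most, with at most 46 estimated counts in a library, and its 95% interval was the widest of the members in asynchronous cells.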
